A study of Mus musculus with 18 samples.

Results

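The genes described here act in signalling and cell survival at and downstream of the tumour necrosis factor (TNF) receptor family. They are 10 mouse genes, Traf1, Traf2, Traf4, Tnfaip3, Tnfaip2, Cflar, Birc2, Birc3, Sphk1 and Fas. They were chosen by symbol, with earlier results of these data known. Every probe set (a group of array probes summarised as 1 value) whose platform annotation gives only 1 of these symbols was taken, which gave 21 of the 45037 probe sets on the array and 10 of 18193 genes. A filter on low signal kept 27773 probe sets, including 20 of the 21. The other one, Sphk1 1420566_at, read between 4.1 and 5.5 on the 18 arrays and was not tested. Cflar had 5 probe sets, Tnfaip2 had 3, Traf1, Traf4, Tnfaip3, Birc3 and Sphk1 had 2 each, and Traf2, Birc2 and Fas had 1 each.

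The study asked which early transcriptional effects of interferon need protein synthesis. NIH-3T3 cells, a line of mouse fibroblasts, received IFNα, IFNγ or mock treatment for 60 min, with or without cycloheximide (CHX), an inhibitor of translation. 4-thiouridine (4sU), which is built into RNA as it is made, was added at 500 µM from 30 to 60 min, and the tagged newly transcribed RNA was hybridised to Affymetrix whole-genome mouse arrays. There were 6 treatments with 3 biological replicates each, 18 arrays in all. The groups were IFNα+CHX, IFNγ+CHX, CHX alone, IFNα, IFNγ and mock. IFN was given at 100 U/ml and CHX at 50 µg/ml from 15 min before IFN, so that cells had 75 min of CHX at harvest. Groups without CHX received its solvent DMSO. All groups are 1 cell line in culture, and all received 4sU. No label names added TNF.

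TNF receptors signal through adaptor proteins of the TRAF family, to which the ubiquitin ligases cIAP1 (Birc2) and cIAP2 (Birc3) bind. The assembled complex activates kinases that release NF-κB from its IκB inhibitors, and NF-κB then switches on genes that include its own inhibitors. When this survival output fails, TNF receptors can instead recruit caspase-8. Fas can recruit caspase-8 without such a failure, and the protein c-FLIP (Cflar) holds caspase-8 in check.

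The intensities are linear gc-RMA values, a processing that corrects background by probe sequence. They are given in arbitrary units and compared within a probe set only. The median of an array lay between 9.6 and 10.8. Changes are log2 differences between treatments with their standard errors (SE). A probe set was called when limma gave a Benjamini-Hochberg adjusted p under 0.01 over all 27773 probe sets and the change was at least 2-fold. The labels were checked with 3 genes. The mean of Ifit1, an IFN-induced gene, was 9878 with IFNα+CHX and 6147 with IFNα, and 81.0 with CHX and 53.5 with mock. Irgm2, a GTPase gene induced by IFN, averaged 4895 with IFNγ+CHX and 3972 with IFNγ, against 9.30 with CHX and 8.70 with mock. It was also high with IFNα+CHX (4118) and IFNα (1308), so it marks IFN of either kind. Ifit1 averaged 223.1 with IFNγ+CHX and 162.2 with IFNγ, far below its IFNα groups. The linker histone gene H1f2 averaged 7824 with CHX and 85.3 with mock. All 10 fibroblast markers, among them Vim and Fn1, were kept. Of 6 leukocyte markers only Cd68 was kept, at 53.5 to 284.1, and Ptprc, Itgam, Adgre1, Cd3e and Csf1r read 6.5 or less on every array. The summed leukocyte markers were 171.3 to 309.1 with CHX and 103.3 to 136.5 with mock, with Cd68 the only kept marker in the sum, and their part in the results was not tested. All 5 epithelial markers were kept, though none exceeded 20.0 on any array, and none of the 4 endothelial markers was kept.

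The promoter of Tnfaip3 is shown because it holds, before the start site, letters of the short DNA pattern that NF-κB is known to bind. RefSeq start sites of GRCm38.p6 gave 16 windows of 300 bases (250 before to 50 after the start) for the 10 genes, out of 32851 windows in all. Both strands were searched for GGGNNTTTCC (NF-κB) and TTTCNNTTTC (the IFN-stimulated response element, ISRE). These letters stood in 1.63% and 3.44% of all windows, and in 1.89% and 3.99% of all genes with a window. Among the 10 genes the NF-κB letters were found in Tnfaip3 and Traf2 and the ISRE letters in Cflar, and no match overlapped another pattern. The 250 bases before the start are given 5′ to 3′ on the strand of the gene, with the match in capitals, for Tnfaip3 on the minus strand at chr10:19015411-19015660, which is 1 of 2 Tnfaip3 windows.
Tnfaip3: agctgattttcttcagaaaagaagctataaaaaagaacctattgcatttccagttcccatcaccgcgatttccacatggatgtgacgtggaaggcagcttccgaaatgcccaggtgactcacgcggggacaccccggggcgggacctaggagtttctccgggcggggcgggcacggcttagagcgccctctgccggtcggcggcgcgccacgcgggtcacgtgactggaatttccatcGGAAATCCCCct
The match reads GGGGATTTCC on the opposite strand and begins 12 bases before the start site. The Traf2 and Cflar matches lie after the start site. A match describes letters only.

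CHX was the treatment to which most of the 10 genes responded. Of the 20 probe sets, 9 were raised with CHX against mock (Traf1, Tnfaip3 and Birc3 with both of their probe sets, Birc2, Fas and 1 of 5 for Cflar), where 2.51% of all probe sets were raised. The 2 lowered ones were Traf4 and Sphk1, where 4.07% of all were lowered. Both Traf1 probe sets lay under the low-signal limit of 8.5 on every array without CHX. They passed the filter only through arrays with CHX, so their calls with CHX add no independent support to these counts. The Traf1 probe set 1423602_at was under 2-fold against mock with 16 added to each value (0.64). The median change of the 20 was 0.73 on the log2 scale, and that of all probe sets was 0.04. The paper names Traf1, Tnfaip3 and c-FLIP as raised by CHX, and Traf4 and a sphingosine kinase as lowered. The genes were chosen with such results known, so their counts against the background describe them and are not a test. When each array was centred on its median, the calls over the whole table turned to 899 raised and 799 lowered, against 698 raised and 1131 lowered as deposited, and 11 member probe sets were called both ways. In cells that also had IFNα, 11 were raised and 2 lowered (IFNα+CHX against IFNα, background 3.57% and 3.58%). These were the probe sets called with CHX against mock and 2 of Tnfaip2. In cells with IFNγ, 9 were raised and 2 lowered (IFNγ+CHX against IFNγ, background 2.85% and 5.54%). There Fas and Cflar were not called and Tnfaip2 was, and with median centring Fas (1.16) and Cflar 1453482_at (1.19) passed the limit too. With only the 6 arrays compared fitted, 4 of these 11 calls stayed, and the second probe set of Tnfaip3 (adjusted p = 0.0307), Sphk1 (0.0131), Tnfaip2 (0.0257 and 0.0306), Traf1 (0.058 and 0.0242) and Birc3 1425223_at (0.016) missed the threshold. Median centring gave 1228 raised and 969 lowered over the whole table in this comparison, against 792 and 1540 as deposited. These 3 comparisons use different arrays.

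Fewer of the genes responded to IFN. IFNγ against mock raised 4 of the 20 probe sets (Fas, Sphk1 and Tnfaip2 with 2) and lowered 0, where 1.42% of all were raised and 0.209% lowered. IFNγ+CHX against CHX raised 5 (Fas, Sphk1, Birc3 and Tnfaip2 with 2) and lowered 1 of Traf1 (background 2.57% and 0.612%). IFNα against mock called 0 (background 0.461% and 0.0396%), with 2 of the 20 at an unadjusted p under 0.05, where 5.84% of all probe sets were. IFNα+CHX against CHX also called 0 (background 0.889% and 0.0036%), with 6 at an unadjusted p under 0.05, where 4.01% of all were. The test of whether CHX altered the response called 0 for IFNα (background 0.187% raised and 0% lowered) and 0 for IFNγ (0.198% and 0.0396%), with 2 of the 20 at an unadjusted p under 0.05 in each, where 3.96% and 7.78% of all were. When only the 6 arrays compared were fitted, the IFNγ calls against mock stayed for Fas but not for Sphk1 (adjusted p = 0.0368) or Tnfaip2 (0.0115 and 0.0131). Those against CHX stayed for Fas and Tnfaip2 1416273_at, but not for Sphk1 (0.0105), Birc3 (0.0311), Tnfaip2 1438855_x_at (0.0165) or Traf1 (0.256). The IFN comparisons share the mock arrays, or the CHX arrays, with the CHX comparison.

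**Figure D1:**
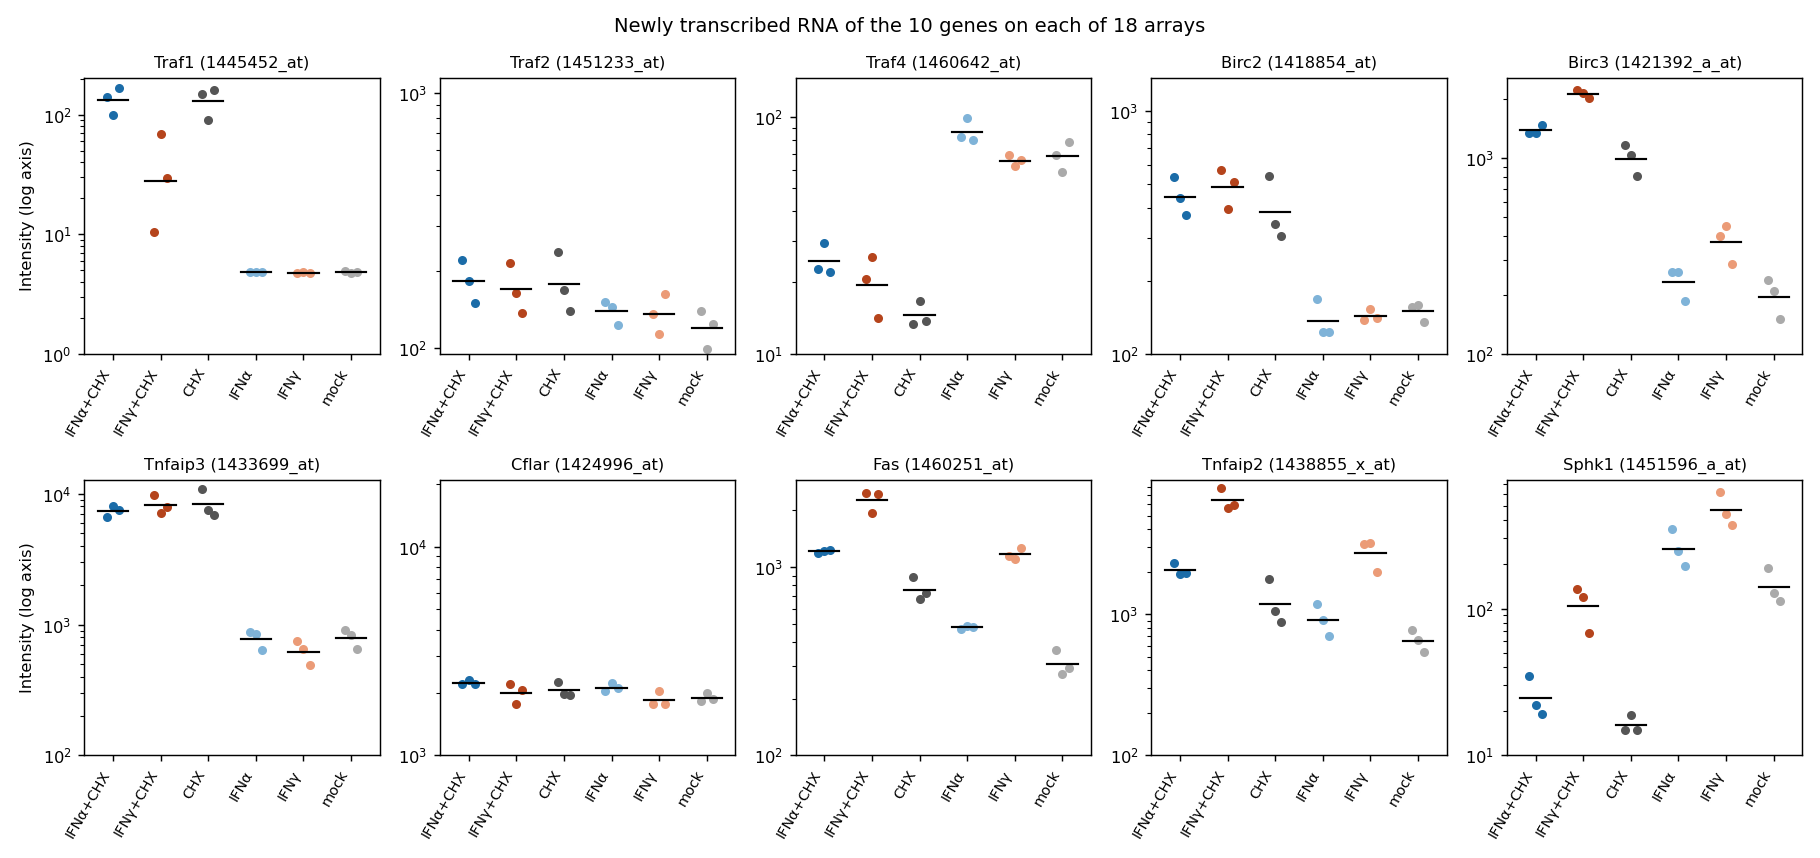
Intensity (log axis) of each gene's probe set with the highest mean, on each of the 18 arrays. Points are arrays and bars are means of log2 values for IFNα+CHX, IFNγ+CHX, CHX, IFNα, IFNγ and mock. Tnfaip3, Birc2, Birc3 and Traf1 sat higher on all 9 arrays with CHX than on all 9 without it, and Traf4 sat lower.

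Fas, the death receptor for Fas ligand, rose with IFNγ and with CHX, and was highest with both. It read 882.6, 678.7 and 731.8 with CHX, against 363.6, 269.5 and 291.6 with mock. With IFNγ+CHX it read 2483.7, 1944.1 and 2435.3, and with IFNγ 1146.6, 1102.4 and 1264.7. With IFNα+CHX it read 1182.8, 1221.3 and 1235.6, and with IFNα 471.3, 485.8 and 481.5. Each of the 5 treated groups lay wholly above mock, and IFNγ+CHX lay wholly above every other group. IFNγ raised Fas by 1.94 on the log2 scale (SE 0.13, 3.83-fold, adjusted p = 2.42e-07) against mock, and by 1.58 (SE 0.13, adjusted p = 1.13e-06) in the presence of CHX. CHX raised it 2.49-fold (log2 change 1.31, SE 0.13, adjusted p = 9.76e-06) against mock and 2.53-fold in cells with IFNα (adjusted p = 6.29e-06). In cells with IFNγ its change with CHX was 0.96 (SE 0.13, adjusted p = 1.09e-04), just under the 2-fold limit, and it passed that limit without IFNγ+CHX replicate 2 (1.07) or without IFNγ replicate 3 (1.02). The changes with IFNα were 0.65 against mock (adjusted p = 0.0266) and 0.68 with CHX (adjusted p = 0.0133), which were not called. The 2 IFNγ responses differed by -0.35 (95% interval -0.75 to 0.04, adjusted p = 0.713).

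Traf1, an adaptor that binds TRAF2 and is itself a known NF-κB target, read above the low-signal limit only with CHX. Its probe set 1445452_at read 149.6, 91.2 and 162.4 with CHX, against 4.9, 4.7 and 4.8 with mock. It read 141.6, 99.8 and 168.6 with IFNα+CHX, against 4.8 on each of the 3 arrays with IFNα. It read 10.5, 68.9 and 29.7 with IFNγ+CHX, against 4.7, 4.8 and 4.7 with IFNγ. The 9 arrays without CHX all lay under 8.5, the lowest peak value of a probe set that was kept, so no level can be read there and the fold depends on where gc-RMA sets its floor. CHX raised it by 4.76 on the log2 scale (SE 0.46, adjusted p = 8.3e-06), or by 2.82 when 16 was added to each value. The second probe set, 1423602_at, read 23.1, 18.6 and 13.4 with CHX and 6.2, 5.8 and 5.8 with mock, a 3.02-fold rise (adjusted p = 2.06e-04) that was under 2-fold with 16 added (0.64). In cells with IFNγ both probe sets lost the call with CHX when 16 was added, at 1.18 (adjusted p = 0.015) for 1445452_at, against 2.55 without it, and at 0.44 (adjusted p = 0.0203) for 1423602_at. The probe sets differ in size of change with CHX but not in direction. With IFNα+CHX the second read 42.5, 34.5 and 24.6, wholly above CHX alone. Its change against CHX was 0.88 (adjusted p = 0.117), not called, and that of the first was 0.035.

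With IFNγ+CHX the first Traf1 probe set was lower than with CHX alone by a log2 change of -2.23 (SE 0.46, adjusted p = 0.00666), with 3 widely spaced arrays that all lay below the CHX arrays. The call was lost, at an adjusted p of 0.0101 to 0.0337, on leaving out any of 13 of the 18 arrays, among them IFNγ+CHX replicate 3 (0.0192), CHX replicate 1 (0.0269) and CHX replicate 3 (0.0337). It was also lost without the low-signal filter (adjusted p = 0.0157) and with quantile normalization (adjusted p = 0.0109). The other probe set read 14.9, 17.3 and 9.8 with IFNγ+CHX, overlapping CHX alone, with a change of -0.40 (SE 0.23, adjusted p = 0.409). The 2 Traf1 probe sets thus give different calls for this comparison.

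Traf2, the adaptor that brings cIAP1 and cIAP2 to TNF receptor 1, was called in none of the 9 comparisons. It read 239.1, 168.6 and 139.8 with CHX, against 139.5, 99.3 and 124.7 with mock, and the lowest CHX array lay just above the highest mock array. The change was 0.57 (95% interval 0.09 to 1.05, adjusted p = 0.0953). The 4 IFN changes ran from -0.07 with IFNγ+CHX against CHX to 0.22 with IFNα against mock, with intervals that reached no further than 0.70 on either side of zero.

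Traf4, a family member with roles in development and cell junctions, fell with CHX whichever cytokine was present. Its probe set 1460642_at read 13.4, 16.7 and 13.8 with CHX, against 69.0, 58.6 and 78.5 with mock. It read 22.7, 29.5 and 22.1 with IFNα+CHX, against 82.0, 99.4 and 79.7 with IFNα. It read 20.6, 25.7 and 14.2 with IFNγ+CHX, against 69.2, 61.8 and 65.7 with IFNγ. No array with CHX reached the lowest array without it. The changes with CHX were -2.23 (SE 0.19, adjusted p = 3.21e-06), -1.82 in cells with IFNα and -1.74 in cells with IFNγ. With 16 added to each value they were -1.462, -1.337 and -1.185. With IFNα+CHX against CHX the change was 0.75 (adjusted p = 0.114), with no overlap of the arrays. The second probe set, 1416571_at, was dim, at 3.7 to 4.2 with CHX and 4.9 to 10.6 with mock. Its change of -0.86 was not called (adjusted p = 0.0235), but was without mock replicate 3 (-1.14, adjusted p = 0.0038).

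Birc2 and Birc3, the neighbouring genes for cIAP1 and cIAP2, both rose with CHX, and Birc3 was also higher with IFNγ. Birc2 read 539.1, 341.1 and 304.8 with CHX, against 155.7, 158.7 and 135.6 with mock. It read 532.3, 435.9 and 373.4 with IFNα+CHX, against 167.8, 122.4 and 122.9 with IFNα. It read 570.1, 392.8 and 508.2 with IFNγ+CHX, against 137.9, 152.3 and 140.4 with IFNγ. The arrays fell in 2 separate ranges, 304.8 to 570.1 with CHX and 122.4 to 167.8 without. CHX raised Birc2 by 1.35 (SE 0.21, 2.56-fold, adjusted p = 3.99e-04), by 1.70 in cells with IFNα and by 1.76 in cells with IFNγ. With only the 6 CHX and mock arrays fitted the first of these missed the call (adjusted p = 0.0182). Its 4 IFN changes lay between -0.14 and 0.34, none called.

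Birc3 1421392_a_at read 1163.5, 1034.9 and 813.7 with CHX, against 238.9, 209.1 and 150.7 with mock. It read 2237.6, 2158.3 and 2032.4 with IFNγ+CHX, against 398.2, 448.8 and 287.7 with IFNγ. It read 1349.7, 1354.1 and 1485.9 with IFNα+CHX, against 261.3, 261.8 and 186.3 with IFNα. IFNγ+CHX lay wholly above all other groups, and IFNγ lay wholly above mock. CHX raised Birc3 by 2.34 (SE 0.20, 5.07-fold, adjusted p = 3.18e-06), by 2.58 in cells with IFNα and by 2.53 in cells with IFNγ. IFNγ raised it in the presence of CHX by 1.11 (SE 0.20, adjusted p = 0.00245), a call lost without IFNγ+CHX replicate 1 (adjusted p = 0.0117) or without CHX replicate 3 (adjusted p = 0.0159). Against mock the change with IFNγ was 0.92 (adjusted p = 0.0166), not called, though it was without IFNγ replicate 3 (1.11, adjusted p = 0.00649). The 2 IFNγ changes differed by 0.18 (SE 0.28, adjusted p = 0.999). The second probe set, 1425223_at, rose with CHX by 2.94 (SE 0.49, adjusted p = 7.81e-04), on mock arrays that read 7.2, 21.8 and 27.0, and missed the call with only the 6 arrays compared fitted (adjusted p = 0.0237). It was not called with IFNγ+CHX against CHX (0.56, adjusted p = 0.665).

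Tnfaip3, the gene for the ubiquitin-editing NF-κB inhibitor A20, rose with CHX in every cytokine setting and was called with neither IFN. Its probe set 1433699_at read 10898.7, 7557.5 and 6910.1 with CHX, against 904.2, 829.8 and 650.3 with mock. It read 6705.4, 8045.0 and 7488.4 with IFNα+CHX, against 876.1, 845.0 and 643.5 with IFNα. It read 9860.7, 7159.8 and 7997.4 with IFNγ+CHX, against 751.4, 652.2 and 492.6 with IFNγ. The lowest array with CHX lay far above the highest without. CHX raised it 10.5-fold against mock (log2 change 3.40, SE 0.21, adjusted p = 1.35e-07), 9.47-fold in cells with IFNα and 13.3-fold in cells with IFNγ. The differences of these responses from that against mock were -0.15 (SE 0.29, adjusted p = 1) for IFNα and 0.34 (SE 0.29, adjusted p = 0.93) for IFNγ. The IFN change farthest from zero was -0.34 with IFNγ against mock (SE 0.21, adjusted p = 0.72).

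The second Tnfaip3 probe set, 1450829_at, gave the same direction with more scatter. It read 717.6, 765.6 and 785.8 with CHX, against 43.9, 35.4 and 34.2 with mock, a rise of 4.33 (SE 0.69, adjusted p = 5.3e-04). It read 1916.7, 175.7 and 1383.3 with IFNγ+CHX, and 34.4, 12.6 and 40.1 with IFNγ. Replicate 2 was the low array in both groups with IFNγ, whereas 1433699_at showed no such gap. Its rise with CHX in cells with IFNγ was 4.90 (SE 0.69), 5.97 without IFNγ+CHX replicate 2 and 4.38 without IFNγ replicate 2.

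Cflar, the gene for c-FLIP, gave different calls by probe set. The one of highest mean, 1424996_at, read 2256.5, 1968.8 and 1937.5 with CHX, against 1817.7, 1986.5 and 1861.5 with mock, and the groups overlapped. The change was 0.12 (95% interval -0.09 to 0.33, adjusted p = 0.423), and its changes in the other 6 comparisons of treatments lay between -0.04 and 0.16. Probe set 1453482_at read 283.8, 316.0 and 241.5 with CHX, against 95.6, 104.6 and 99.2 with mock, without overlap. It rose by 1.48 (SE 0.23, adjusted p = 4.07e-04), and by 1.18 in cells with IFNα (adjusted p = 0.00213). The second of these was lost without IFNα+CHX replicate 1 (adjusted p = 0.0115), without IFNα replicate 3 (adjusted p = 0.0126) or with only the 6 arrays compared fitted (adjusted p = 0.0102). In cells with IFNγ the change was 0.99 (adjusted p = 0.00605), just under 2-fold, and it was called without IFNγ+CHX replicate 3 (1.09) or without IFNγ replicate 2 (1.24). The other 3 probe sets had changes with CHX of 0.36 to 0.56, none called. The probe sets were not mapped to transcript ends here.

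**Figure D2:**
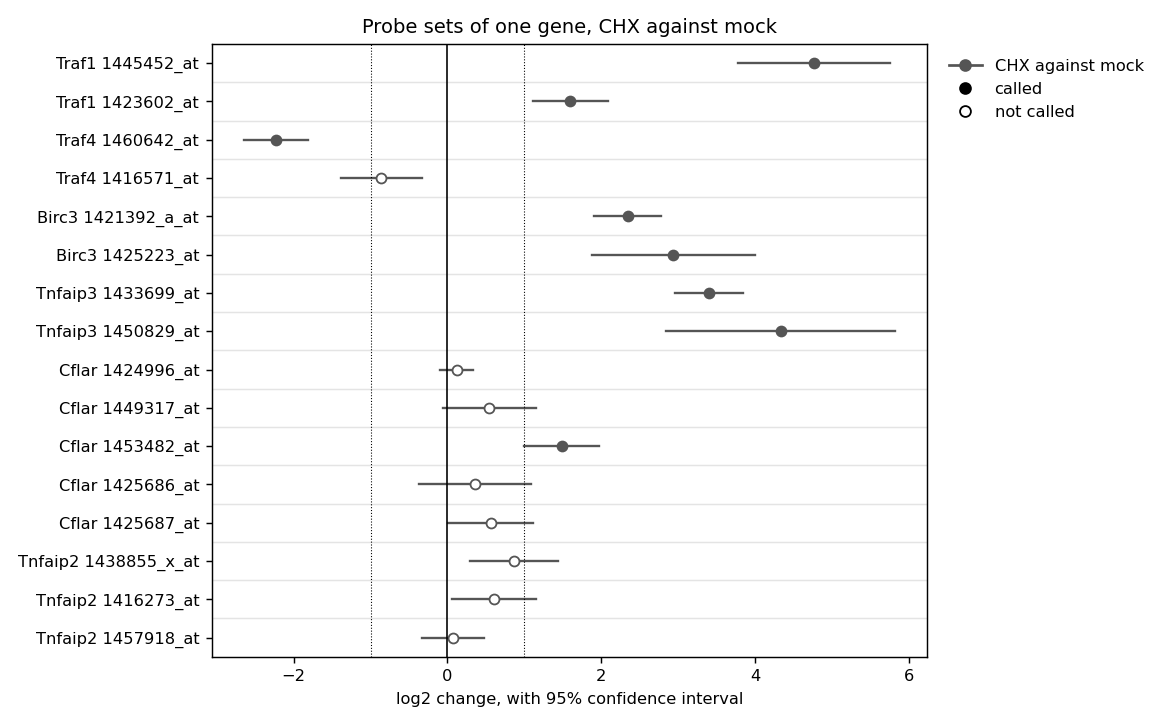
The log2 change with CHX against mock for each kept probe set of the 6 genes with more than 1 such probe set. Points are estimates over 3 arrays each, lines are 95% confidence intervals, filled points were called, and dotted lines mark 2-fold. Both probe sets of Traf1, Birc3 and Tnfaip3 were called, and 1 of 5 for Cflar.

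**Figure D3:**
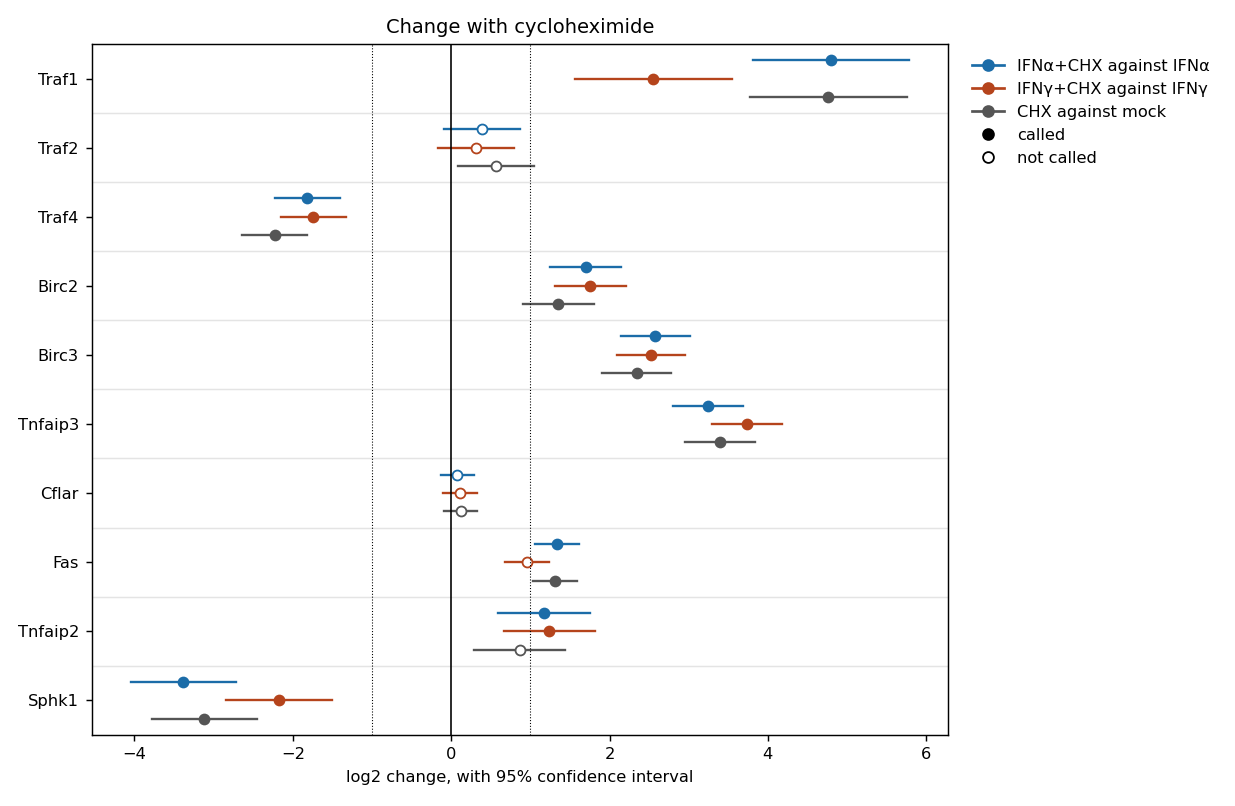
The log2 change with CHX for the probe set of highest mean of each gene, in cells with IFNα, with IFNγ and without IFN. Lines are 95% confidence intervals, filled points were called, and dotted lines mark 2-fold. Traf4 and Sphk1 lay below zero in all 3 settings, and Traf2 and Cflar were called in none.

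Tnfaip2, a TNF-induced gene whose product is linked to membrane tubes and vesicle traffic, answered mainly to IFNγ. Its probe set 1438855_x_at read 3165.0, 3183.1 and 1999.1 with IFNγ, against 777.7, 656.1 and 537.7 with mock. It read 7794.5, 5680.6 and 5957.3 with IFNγ+CHX, against 1781.1, 1057.5 and 878.7 with CHX. It read 2307.2, 1934.2 and 1956.6 with IFNα+CHX, and 1188.7, 909.3 and 703.7 with IFNα. IFNγ+CHX lay above all other groups, while IFNα overlapped CHX alone and mock. IFNγ raised it 4.19-fold against mock (log2 change 2.07, SE 0.27, adjusted p = 2.23e-04) and 5.42-fold in the presence of CHX (2.44, SE 0.27, adjusted p = 2.42e-05). Probe set 1416273_at gave 2.30 and 3.11 (SE 0.25 each), 4.93-fold and 8.63-fold. The change of IFNγ response with CHX was 0.37 and 0.81 for these probe sets (adjusted p = 0.954 and 0.6).

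CHX against mock changed Tnfaip2 1438855_x_at by 0.86 (adjusted p = 0.0364), which was not called. In cells with IFNα it rose by 1.17 (adjusted p = 0.0063) and in cells with IFNγ by 1.24 (adjusted p = 0.00394). The IFNα call was lost without any 1 of 5 arrays (adjusted p = 0.0163 to 0.0343), namely the 3 with IFNα+CHX and IFNα replicates 2 and 3, and also without the filter (0.0127) or with median centring (0.0142). The IFNγ call was lost without any 1 of 3 (0.01 to 0.0225), namely IFNγ+CHX replicates 1 and 3 and IFNγ replicate 3. The second probe set gave 1.55 and 1.41 in these comparisons. With IFNα+CHX against CHX it read 641.4, 536.8 and 506.2 against 282.7, 204.7 and 188.5, a change of 1.33 (SE 0.25) that narrowly missed the call (adjusted p = 0.0118). That change was called without IFNγ+CHX replicate 1 (adjusted p = 0.00569) or without IFNγ replicate 1 (adjusted p = 0.00752), arrays of neither group compared. With the replicate number as a block it was called too (adjusted p = 6.61e-06). The third probe set, 1457918_at, read 7.5 to 8.7 on every array except IFNγ+CHX replicate 1 (16.5) and was not called.

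Sphk1, whose kinase makes sphingosine-1-phosphate, was lowered by CHX and raised by IFNγ. Its probe set 1451596_a_at read 14.8, 18.8 and 15.0 with CHX, against 188.3, 127.8 and 113.0 with mock. It read 136.6, 119.2 and 68.2 with IFNγ+CHX, against 620.4, 442.2 and 372.3 with IFNγ. It read 34.6, 22.0 and 19.2 with IFNα+CHX, against 346.0, 247.0 and 193.8 with IFNα. The order of the groups from low to high was CHX, IFNα+CHX, IFNγ+CHX, mock, IFNα and IFNγ. Only the neighbours IFNγ+CHX and mock overlapped. CHX changed Sphk1 by -3.12 (SE 0.31, adjusted p = 1.06e-05), by -3.38 in cells with IFNα (adjusted p = 3.97e-06) and by -2.17 in cells with IFNγ (adjusted p = 1.72e-04). IFNγ raised Sphk1 3.35-fold against mock (log2 change 1.74, SE 0.31, adjusted p = 0.00367) and 6.43-fold in the presence of CHX (2.69, SE 0.31, adjusted p = 4.01e-05). The first call was lost without IFNγ replicate 1 (adjusted p = 0.0260), IFNγ replicate 2 (0.0139), mock replicate 2 (0.0230) or mock replicate 3 (0.0243). The responses differed by 0.94 (SE 0.44, adjusted p = 0.644). With 16 added to each value the IFNγ changes were 1.63 against mock and 1.90 in the presence of CHX, and they differed by 0.27. The change with CHX against mock was then -2.28. The changes with IFNα were 0.87 against mock (adjusted p = 0.515) and 0.60 with CHX (adjusted p = 1), not called, though IFNα and mock did not overlap.

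**Figure D4:**
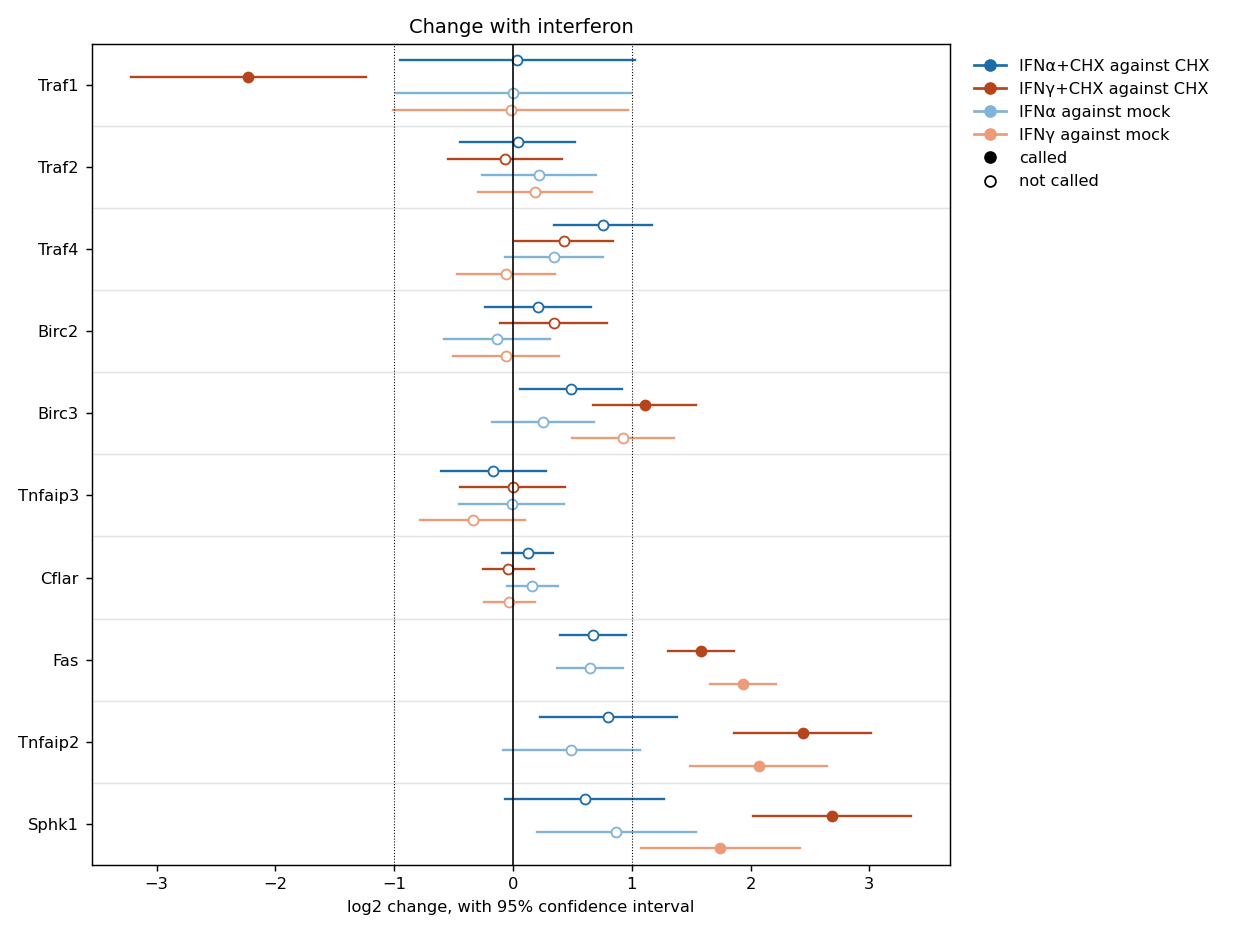
The log2 change with IFN for the probe set of highest mean of each gene, for IFNα+CHX against CHX, IFNγ+CHX against CHX, IFNα against mock and IFNγ against mock. Lines are 95% confidence intervals, filled points were called, and dotted lines mark 2-fold. Fas, Tnfaip2 and Sphk1 were called with IFNγ in both settings, and no gene was called with IFNα.

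The 10 genes thus formed different patterns over the 18 arrays. The log2 values of Tnfaip3 went with those of Birc2 (Pearson r = 0.967) and Birc3 (0.929) and against those of Traf4 (-0.942). Those of Tnfaip2 went with those of Fas (0.944) but hardly with those of Sphk1 (0.072). These are descriptions over 18 arrays that share 6 treatments, from the probe set of each gene with the highest mean.

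Each gene with a called probe set of highest mean was also set against 12111 other genes for the pattern most like its own over the 18 arrays. For Tnfaip3 these were the histone gene H1f2 (r = 0.992), Siglecg (0.991) and 4930412F09Rik (0.991), and for Birc2 Tmem39a (0.978), Fbxo38 (0.978) and Ice2 (0.977). Birc3 was most like Ptx3 (0.983), a secreted pentraxin, Fermt3 (0.983) and Cstf3 (0.979). Tnfaip2 was most like Map3k8 (0.984), a kinase of NF-κB signalling, Itpkc (0.983) and Ctps (0.97). Fas was most like Rnd1 (0.967), Rab8b (0.962) and Map3k8 (0.961). Sphk1 was most like Ccsap (0.978), Cebpd (0.973), a transcription factor gene, and 9330151L19Rik (0.972). Traf4 was most like Nab2 (0.963), Foxs1 (0.961) and Cluh (0.959), and Traf1 was most like Gm41810 (0.978), Emx2 (0.966) and Saxo2 (0.965). Traf1 lay under the low-signal limit on every array without CHX, so its r values rest largely on the contrast with the CHX arrays.

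The rest of the pathway was read from 5 lists, with each gene represented by its kept probe set of highest mean. The lists too were chosen with earlier results of these data known, so their counts are descriptions and not a test. Among NF-κB subunits and inhibitors CHX against mock raised 7 of 11 and lowered 0, where 2.51% of all probe sets were raised and 4.07% lowered. Their median change was 1.77 on the log2 scale, where the median of all probe sets was 0.04. The largest rises were those of Nfkbie, an IκB inhibitor (2.74, SE 0.39, adjusted p = 1.89e-04), Nfkb2, the p100 subunit (2.41, SE 0.24, adjusted p = 1.02e-05), Relb (2.11, SE 0.12, adjusted p = 6.75e-08) and Rel (2.06, SE 0.24, adjusted p = 3.61e-05). In cells with IFNα and in cells with IFNγ, CHX raised 6 of these 11, with medians of 1.61 and 1.12. Of all probe sets, 3.57% and 2.85% were raised there. IFNγ against mock raised 1 of 11, Bcl3, an atypical IκB protein (3.34, SE 0.46, adjusted p = 3.75e-04), and IFNα against mock raised 0. Over all probe sets, 1.42% and 0.461% were raised in these comparisons.

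**Figure D5:**
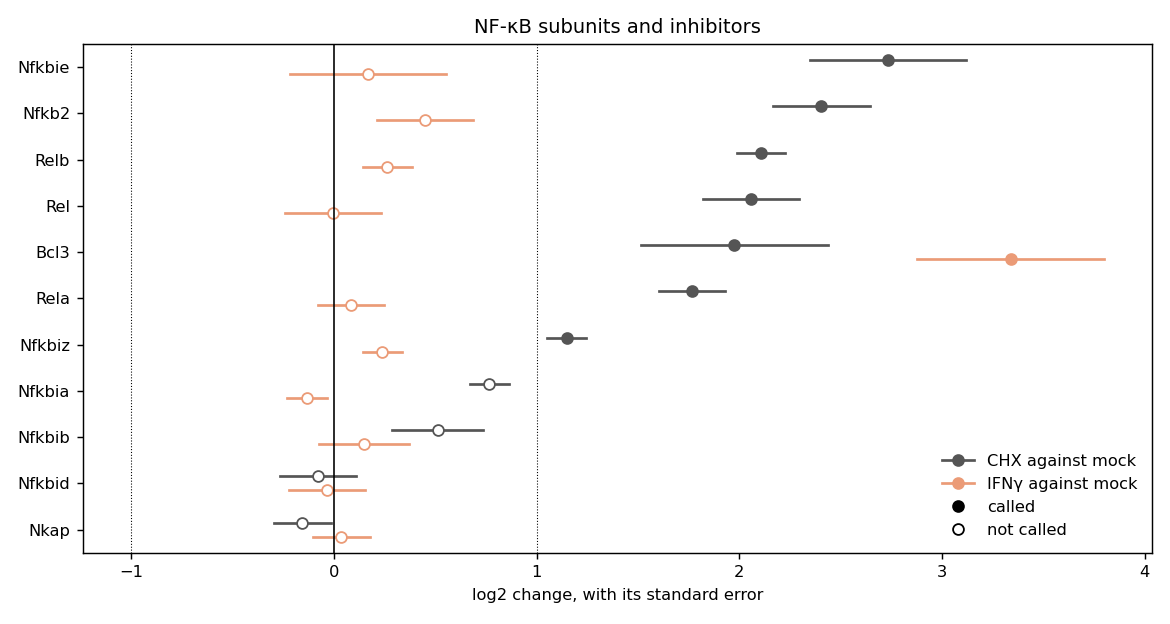
The log2 change of the 11 kept NF-κB subunits and inhibitors with CHX against mock and with IFNγ against mock. Points are estimates over 3 arrays each, lines are standard errors, filled points were called, and dotted lines mark 2-fold. CHX raised 7 of the 11 genes and IFNγ raised Bcl3.

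The calls with CHX on the other lists are read against 2.51% of all probe sets raised and 4.07% lowered. Of 13 kept receptors and ligands, Tnfsf13b, the ligand BAFF, rose (1.06, SE 0.25, adjusted p = 0.00884) and Tnfsf9, the ligand of 4-1BB, fell (-1.98, SE 0.42, adjusted p = 0.00431). Tnfsf13b read 26.4, 23.5 and 23.1 with CHX, against 14.1, 10.1 and 11.2 with mock, close to the low-signal limit of 8.5. A second Tnfsf13b probe set was not called (0.126, adjusted p = 0.356). Of 22 adaptors, kinases and ubiquitin ligases, Tifa, an adaptor upstream of TRAF6, was called as raised (adjusted p = 0.00546), on mock arrays under the low-signal limit, and 0 were lowered. Of 13 deubiquitinases and inhibitors, Cyld (1.69, SE 0.15, adjusted p = 4.85e-06) and Tnip1 (1.47, SE 0.27, adjusted p = 0.00162) rose, and Tnip2 fell (-1.06, SE 0.21, adjusted p = 0.0024). The proteins of these genes restrain NF-κB signalling, as A20 does. Of 18 genes of death execution 0 rose, and the caspase genes Casp2 (-1.38, SE 0.17, adjusted p = 7.98e-05) and Casp6 (-1.38, SE 0.21, adjusted p = 3.12e-04) fell. The medians of these 4 lists were 0.09, 0.03, -0.11 and -0.19.

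IFNγ against mock raised 1 of the 13 receptors and ligands, 3 of the 22 adaptors, kinases and ubiquitin ligases, 1 of the 13 deubiquitinases and inhibitors and 1 of the 18 death genes, and lowered 0, where 1.42% of all probe sets were raised and 0.209% lowered. The receptor was Tnfrsf1a, TNF receptor 1 itself, which read 1603.6, 1448.3 and 1195.9 with IFNγ and 565.0, 406.1 and 397.9 with mock. It rose by 1.64 (SE 0.24, adjusted p = 6.65e-04), and by 2.02 with IFNγ+CHX against CHX (adjusted p = 5.53e-05). Tifa read 280.4, 214.9 and 246.8 with IFNγ, against 5.9, 5.7 and 5.0 with mock, so that no level can be read in mock cells and no size is given for its rise (adjusted p = 4.28e-08). The other rises were those of Rnf31, a subunit of the linear ubiquitin ligase (2.48), Map3k8 (2.32), Ripk3, the kinase of necroptosis (1.88), and Tnip2 (1.10). Rnf31 read 22.4, 8.3 and 13.5 with mock and 10.3, 8.2 and 7.6 with CHX, so some of these arrays lay under the low-signal limit of 8.5. The sizes of its rises, here and below, thus depend on the floor. IFNα against mock raised Rnf31 (2.12, SE 0.33, adjusted p = 0.00304), where 0.461% of all probe sets were raised. IFNα+CHX against CHX raised Rnf31 (2.24), Daxx, a Fas-binding chromatin protein (2.79, SE 0.37, adjusted p = 4.4e-04), and Mlkl, the effector of necroptosis (1.47, SE 0.21, adjusted p = 8.94e-04), and none of the listed genes fell. There 0.889% of all probe sets were raised and 0.0036% lowered. IFNγ+CHX against CHX also raised Mlkl (1.34, SE 0.21, adjusted p = 7.24e-04), and beside the 6 genes of these 4 lists raised by IFNγ against mock it raised Rbck1, another subunit of the linear ubiquitin ligase (1.18, SE 0.18, adjusted p = 6.27e-04). In that comparison 2.57% of all probe sets were raised and 0.612% lowered.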

How the data were processed

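The authors measured newly transcribed RNA on Affymetrix whole-genome mouse arrays, and the deposited table holds 1 linear intensity per probe set and array. Per the methods these intensity values came from gc-RMA, and the submitters' processing notes name Affymetrix Expression Console. Of 45101 probe sets, 64 controls were left out. Genes were named from the platform annotation, with 34945 probe sets of a single symbol, 932 of several and 9160 of none, and symbols were updated through RefSeq. The methods kept probe sets called present. These calls were not used here, so about as many were kept by the highest reading on any array, which set the limit at 8.5.

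Values were taken as log2 without an added constant and fitted in limma 3.58.1 (R 4.3.3) as 1 model of 6 treatments over 18 arrays, with 12 residual and 2.05 prior degrees of freedom. P-values were adjusted by Benjamini-Hochberg within each of 9 comparisons. The fit was tested on simulated data. Arrays have no sequencing depth, and their number limits the precision. Other settings tried were 16 added before log2, no filter, a filter at the median of all probe sets, quantile normalization, median centring, only the arrays compared, the replicate number as a block and each array left out in turn. Promoters were searched in Python 3 with RefSeq windows of GRCm38.p6.

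All 10 genes are named, each by its kept probe set of highest mean, with the others where called or differing. From each list at most 4 raised and 4 lowered genes with the largest change among those called are named, and for likeness the 3 genes of highest Pearson r. The genes and lists were chosen with earlier results of these data known, and the promoter shown was chosen after the search. A further promoter pattern is not reported here.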

Additional observations from a re-analysis of the deposited data

How the results depend on the processing

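Of the 9 comparisons, 5 kept their count of called member probe sets to within 1.5 times under all settings. The count for IFNα+CHX against CHX was 0 as reported and 1 (Tnfaip2 1416273_at) with the filter at the median of all probe sets and with the replicate block, and 0 to 1 with 1 array left out. When only the arrays compared were fitted, with fewer arrays behind each spread, the counts were 1 in place of 4 for IFNγ against mock, 2 in place of 6 for IFNγ+CHX against CHX and 4 in place of 11 for IFNγ+CHX against IFNγ. With 1 array left out they ran from 3 to 5, 4 to 6 and 10 to 12, and for CHX against mock from 11 to 12 of a reported 11. Over all probe sets the fit of only the arrays compared called 323 raised and 564 lowered for CHX against mock, in place of 698 and 1131, and 231 and 19 for IFNγ against mock, in place of 394 and 58. No called change reversed its sign in any setting, while 116 of the 3344 values called neither as reported nor under the setting did. Of the single changes, 25 lost and 5 gained a call under other settings, and 29 and 8 with 1 array left out. Median centring moved the median change of all probe sets to 0.15 for CHX against mock and to 0.23 for IFNγ+CHX against IFNγ. The replicate numbers do not pair the arrays by a label, and deviations from group means of same-numbered arrays correlated between -0.401 and 0.784. The median was 0.474 for arrays of the same number and -0.306 for arrays of different numbers, a structure that the reported fit without a block leaves out. Of 18 arrays, 14 were most like those of their own number. As a block (paired by number) they gave 1001 raised and 1374 lowered probe sets for CHX against mock in place of 698 and 1131, and changed no call of a member other than that of Tnfaip2 named above. Probe sets near the floor, such as those of Traf1 without CHX, limit the size of a fold change, which for Traf1 with CHX was 2.82 on the log2 scale with 16 added and 4.76 as reported.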
